A study of Caenorhabditis elegans with 2 samples.

Results

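The 250 strongest nuclear regions bound by NFYB-1 were chosen by their signal in the authors' conservative list of reproducible ChIP-seq regions of Caenorhabditis elegans. Of the 3890 regions in that list, 3879 lay on the 6 nuclear chromosomes, and 3640 were left once overlapping regions were merged to the highest. The 250 with the highest signal are described here against the other 3390. They ran from a signal of 18739 down to 336.5, and 18 of them stood for 2 overlapping regions. The study holds 2 biological replicates of 1 group: whole young adults aged 65 hours, synchronised by starving hatchlings after bleaching. Their strain, RW12190, carries the insertion st12190[nfyb-1::TY1::EGFP::3xFLAG] II, made by CRISPR at the gene's own locus, and the tagged protein was pulled down with an antibody against GFP. Chromatin was sonicated to 200 to 800 bp. Whole worms mix all tissues, and signal from few cells with strong binding cannot be told apart from weaker binding in many cells.

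Because the signal chose the regions, signal, width and replicate signals are given as descriptions. The shares of sequence features and gene classes are counts of regions with exact (Clopper-Pearson) 95% intervals, which cover counting error only, and no test was made over regions. The regions are not replicates of a condition.

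NF-Y is a transcription factor of 3 subunits, NF-YA, NF-YB and NF-YC. NF-YB and NF-YC pair through histone folds, and NF-YA joins the pair and reads the CCAAT box in DNA. In mammals the complex is known for binding a short way upstream of gene starts, among them genes for chaperones of the endoplasmic reticulum (ER), cell-cycle genes and other housekeeping genes. NFYB-1 is a worm form of the NF-YB subunit. The box was searched here in an extended form, CCAAT preceded by 2 purines and followed by C or G and then a purine, on both strands within 100 bp of each region's summit, its point of highest signal.

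The 9 strongest regions all held the extended box. The windows of 7 of them are shown because they carry that result. Each is the plus strand of WBcel235 (the build UCSC calls ce11, from RefSeq) for 60 bp either side of the summit, cut back where an annotated untranslated region began, with extended boxes in capitals.
Y22D7AL.10, rank 1 (chrIII:1619076-1619196, + strand): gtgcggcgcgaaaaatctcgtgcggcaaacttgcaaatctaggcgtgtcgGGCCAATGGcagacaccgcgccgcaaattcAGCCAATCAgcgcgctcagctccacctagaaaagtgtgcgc
hsp-3, rank 2 (chrX:6092125-6092240, + strand): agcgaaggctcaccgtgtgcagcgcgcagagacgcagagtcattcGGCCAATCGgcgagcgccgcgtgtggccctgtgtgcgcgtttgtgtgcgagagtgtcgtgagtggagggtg
crt-1, rank 3 (chrV:6100740-6100860, + strand): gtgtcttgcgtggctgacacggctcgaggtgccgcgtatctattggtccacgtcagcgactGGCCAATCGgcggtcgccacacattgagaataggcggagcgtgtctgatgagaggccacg
mdt-26 and ift-43, rank 4 (chrII:5661044-5661164, + strand): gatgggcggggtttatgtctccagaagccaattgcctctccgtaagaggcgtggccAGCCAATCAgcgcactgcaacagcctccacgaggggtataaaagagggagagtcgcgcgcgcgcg
hsp-90 and C47E8.4, rank 6 (chrV:14685733-14685853, + strand): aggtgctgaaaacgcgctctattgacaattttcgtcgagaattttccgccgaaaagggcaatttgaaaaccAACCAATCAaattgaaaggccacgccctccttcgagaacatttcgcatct
pdi-2, rank 7 (chrX:4524085-4524154, + strand): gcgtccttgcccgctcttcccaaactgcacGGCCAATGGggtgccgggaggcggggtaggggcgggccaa
enpl-1 and imp-2, rank 9 (chrIV:11119171-11119291, + strand): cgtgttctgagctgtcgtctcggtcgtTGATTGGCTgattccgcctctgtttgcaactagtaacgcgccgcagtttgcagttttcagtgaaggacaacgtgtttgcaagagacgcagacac
The box read GGCCAATGG or AGCCAATCA beside the summit of rank 1, GGCCAATCG at hsp-3 and crt-1, and AACCAATCA at hsp-90. The second box of the pdi-2 window is cut by the end of the stretch printed.

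The next stretches are 3 examples of regions with no extended box in spite of a high rank. Other regions of high rank without it, such as ranks 11 and 12, are not shown, so the 3 need not be typical. Capitals mark the longest run of bases that all 3 share on either strand, AGCGTGTTTT.
rpl-3, rank 10 (chrIII:3867515-3867635, + strand): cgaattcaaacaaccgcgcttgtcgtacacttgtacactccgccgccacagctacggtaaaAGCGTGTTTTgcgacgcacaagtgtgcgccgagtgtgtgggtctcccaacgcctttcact
rpl-35, rank 16 (chrIII:7854626-7854746, + strand): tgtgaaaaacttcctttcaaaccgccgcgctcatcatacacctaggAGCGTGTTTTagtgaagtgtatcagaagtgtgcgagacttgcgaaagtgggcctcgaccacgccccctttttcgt
cox-5A, rank 28 (chrIII:12905146-12905266, + strand): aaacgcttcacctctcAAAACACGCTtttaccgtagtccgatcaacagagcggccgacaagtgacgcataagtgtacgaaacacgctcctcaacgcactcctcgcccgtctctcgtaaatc
Between them, rpl-3 and cox-5A shared a run of 21 bases on opposite strands. The 10-base run of capitals was picked from these windows after they were seen, so its presence there is no result. Of the other windows among the 250, 1 held it, that of cdc-48.1 at rank 23. In the rest, 2 of 3390 windows held it, or 0.059%. The background over all 3640 regions was 0.165%, or 6 windows, which include the 3 that the run was picked from.

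The next stretches are 5 examples of repeated boxes away from gene starts. They were picked for holding 2 or more extended boxes, with a pair on the same strand, and no protein-coding start within 1000 bp. These properties were set by the choice and are no result. Among the 250 windows, 5.6% (3.1 to 9.22) held 2 or more boxes, against 4.37% (3.7 to 5.11) of the rest, which does not differ beyond the counting error.
region of rank 25 (chrIII:9571012-9571132, + strand): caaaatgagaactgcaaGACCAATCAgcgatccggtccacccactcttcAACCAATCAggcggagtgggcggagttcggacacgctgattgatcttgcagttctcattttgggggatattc
region of rank 87 (chrV:16361489-16361609, + strand): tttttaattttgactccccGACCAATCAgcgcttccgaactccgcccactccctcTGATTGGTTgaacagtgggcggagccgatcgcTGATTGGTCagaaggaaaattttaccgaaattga
region of rank 101 (chrII:13855528-13855648, + strand): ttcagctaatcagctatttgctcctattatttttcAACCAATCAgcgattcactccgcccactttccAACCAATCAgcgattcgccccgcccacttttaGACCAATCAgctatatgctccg
region of rank 111 (chrIII:3791026-3791146, + strand): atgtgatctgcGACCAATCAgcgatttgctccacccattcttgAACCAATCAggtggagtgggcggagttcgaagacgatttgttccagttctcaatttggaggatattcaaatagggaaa
region of rank 118 (chrII:3930600-3930720, + strand): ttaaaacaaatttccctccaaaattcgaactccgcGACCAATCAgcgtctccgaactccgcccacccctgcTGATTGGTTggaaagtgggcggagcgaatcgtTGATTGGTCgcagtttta
The boxes in capitals recur as GACCAATCA, AACCAATCA and their reverse complements, and the windows of ranks 101 and 118 share a run of 26 bases on opposite strands.

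The last pair lies over genes of the SL2 spliced leader, the short RNA that is joined to the front of downstream messages of worm operons.
sls-2.1, rank 31 (chrII:5844794-5844914, + strand): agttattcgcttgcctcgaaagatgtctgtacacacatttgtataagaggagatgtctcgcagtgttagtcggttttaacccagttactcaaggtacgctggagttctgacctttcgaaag
sls-2.2, rank 60 (chrII:5543551-5543671, + strand): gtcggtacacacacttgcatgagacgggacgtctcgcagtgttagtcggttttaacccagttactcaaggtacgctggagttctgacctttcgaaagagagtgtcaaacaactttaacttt
These 2 windows share 67 bases on the same strand and hold no extended box.

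Signal fell off steeply over the first 10 regions, and the same genes led in both replicates. The strongest region (chrIII:1618837-1619401) peaked 207 bp upstream of Y22D7AL.10, which encodes the mitochondrial 10 kDa heat shock protein, a partner of the mitochondrial chaperonin. Its signal was 8966 in replicate 1 and 9816 in replicate 2. No other region reached the lower of these values: the next, upstream of hsp-3, an ER chaperone of the Hsp70 family, had 4030 and 5024 (chrX:6091885-6092438). The promoter of crt-1, which encodes the ER calcium-binding chaperone calreticulin, had 3542 and 4120 (chrV:6100537-6101060). The shared promoter of mdt-26, a Mediator subunit gene, and ift-43, an intraflagellar transport gene, had 3411 and 3851 (chrII:5660817-5661545). The replicate ranges of ranks 2 and 3 overlapped, as did those of ranks 3 and 4, while ranks 2 and 4 did not overlap, and within each replicate the order was the same.

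The region of rank 5 (chrI:7021203-7021670) peaked 526 bp upstream of ubql-1, the gene of the ubiquitin receptor ubiquilin, just outside the promoter window used here, which runs from 500 bp upstream to 200 bp downstream of a start. It had 2178 in replicate 1 and 2816 in replicate 2. The region of rank 6, in the promoter windows of C47E8.4 and of the cytosolic chaperone gene hsp-90, had 1928 and 2136 (chrV:14685587-14686054). A pair of protein disulphide isomerase genes, whose products form and rearrange disulphide bonds in the ER, came next. The summit at pdi-2 lay 10 bp upstream of its start, with 1495 and 1706 (chrX:4523940-4524373). The summit at pdi-6 lay 14 bp upstream, with 1458 and 1606 (chrX:7068383-7068749). The region at enpl-1, the gene of the ER Hsp90 endoplasmin, and imp-2, an intramembrane protease gene, had 1254 and 1569 (chrIV:11119025-11119462). 

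The tenth region, at the ribosomal protein gene rpl-3, was the first without an extended box. It had 1014 and 1131 (chrIII:3867397-3867734). The region of rank 11 lay 58 bp upstream of tasp-1, the gene of a taspase, a protease that in mammals cuts nuclear regulators. It had 695.0 and 861.5 (chrIII:10759095-10759423). Rank 12 lay between genes, 461 bp downstream of the start of K08F11.1, with 664.7 and 798.5 (chrIV:4725447-4725749).

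**Figure D1:**
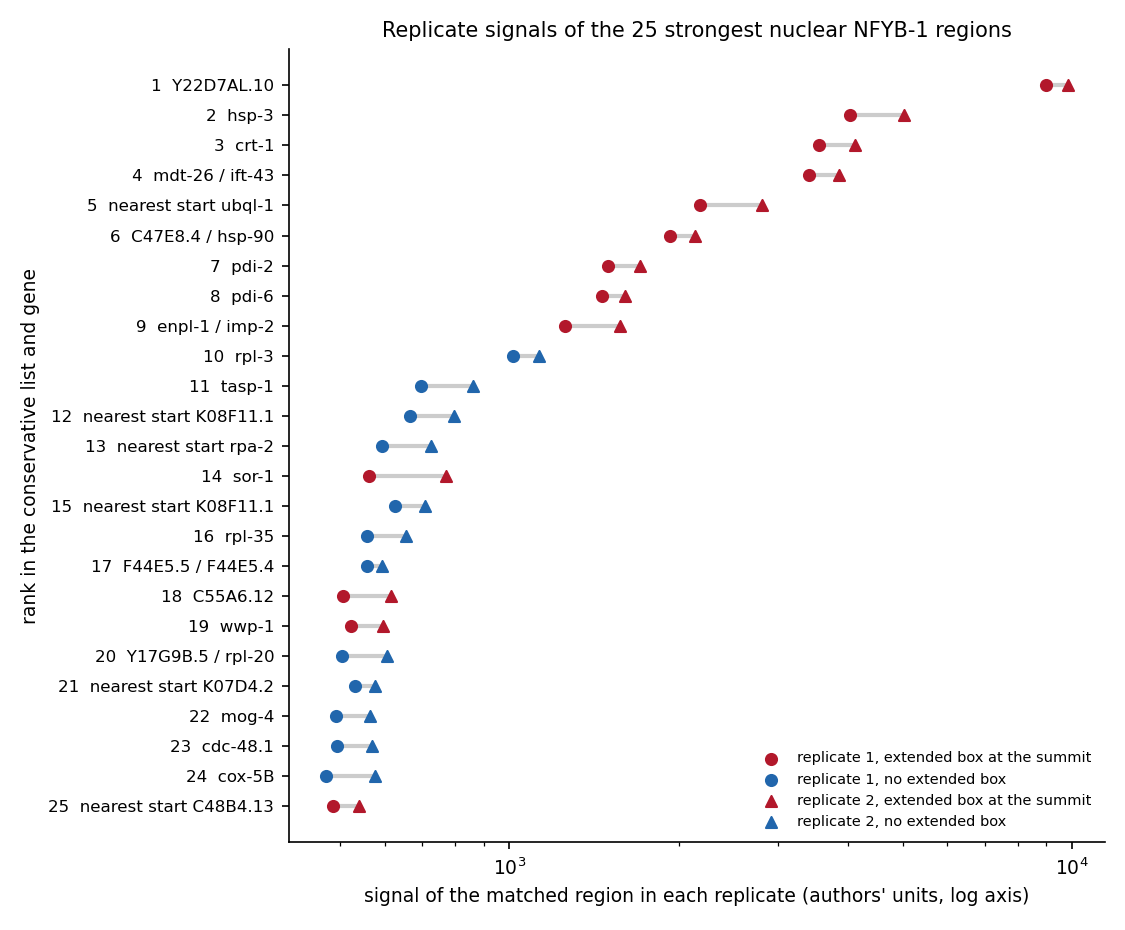
Signal of the 25 strongest regions in replicate 1 (circles) and replicate 2 (triangles), on a log axis in the authors' units, with red for regions with an extended box within 100 bp of the summit and blue for those without. Ranks 1 to 9 are all red, rank 10 at rpl-3 is the first blue region, and replicate 2 is the higher of the pair in all 25.

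Among all 250 regions, the median signal was 208 in replicate 1 (105.0 to 8966) and 253 in replicate 2 (149.0 to 9816, over the 249 regions with a match in that replicate's ranked list). Replicate 2 was higher in 221 of 249 regions, or 88.8%, with a median log2 ratio of replicate 2 over replicate 1 of 0.23. The other regions had a median log2 ratio of 0.25 and were higher in replicate 2 in 74.3% of 3343. Spearman's rank correlation across the 249 regions was 0.836, and 0.814 without the first 10, against 0.596 over the rest. These regions share their 2 libraries, and the correlations only describe them. The signal in the conservative list was close to the sum of both replicates, with a median ratio of 1.00 among the 250 regions.

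By an overlap of 1 bp or more, 248 of the 250 regions, or 99.2%, were in the thresholded lists of both replicates. The background was 33.4% of all 3640 regions, and the rule's own signal underlies both figures. Ranks 251 to 500 had 98.8% and ranks 501 to 1000 had 84.8%, so such overlap is not particular to the set. Of the 250, 225 were among the 250 strongest of replicate 1, 224 among those of replicate 2, and 202 among both. The 2 exceptions were missing from the list of replicate 2. One was rank 145 (chrIV:15895981-15896114), with 191.7 in replicate 1 and no match in replicate 2. Around its summit, 87.8% of the 30-base stretches occur more than once in the genome, with the window itself and mitochondrial DNA counted. The other was rank 248 (chrV:6227695-6227855), with 171.4 in replicate 1 and 163.8 in replicate 2.

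The ratio of the replicates departed most from its median at 3 regions. The promoter of T28F4.5 (chrI:7492003-7492269) had 105.0 in replicate 1 and 269.7 in replicate 2, a log2 ratio of 1.36. The promoter of epc-1, an enhancer of Polycomb homologue (chrIII:12608736-12608879), had 126.8 and 240.0, a log2 ratio of 0.92. An intronic region whose nearest start is that of brc-1, the worm BRCA1 gene, had 202.7 and 149.0, a log2 ratio of -0.44 (chrIII:3855011-3855150). In the last, 83.7% of the 30-base stretches occur more than once in the genome, and in the first pair none do.

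**Figure D2:**
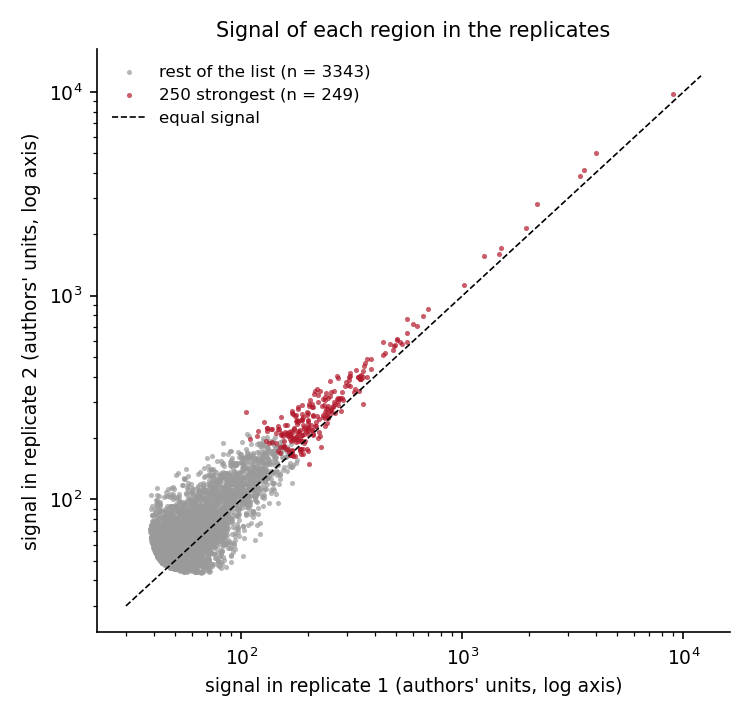
Signal of each region in replicate 1 against replicate 2 on log axes in the authors' units, with the 250 strongest regions in red (249 with values in both) and the rest in grey (3343). The red points run along and mostly above the dashed line of equal signal, with 221 of 249 above it.

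The edge of the set was not a step. The last 3 regions inside it were rank 248, with a signal of 337.7, the promoter of the ATP synthase gene Y82E9BR.3 with 337.6, and the snoRNA gene T06C12.16 with 336.5. The first 3 outside were a region between genes with 335.9 (chrX:2971542-2971728), the promoter of the ribosomal protein gene rps-24 with 335.8 and the promoter of K10D2.5 with 334.4.

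The regions were narrow in the deposited list. Their median width was 226.5 bp (94 to 729), while the rest had a median of 376 bp. A width of exactly 376 bp, the commonest in the list, was given to 3.2% of the 250 regions and 95.4% of the others. Both come from the same calls as the signal.

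A promoter was the commonest place for a summit. This was so of 128 of 250 regions, or 51.2% (44.8 to 57.5), against a background of 35.6% over all regions and 34.4% (32.8 to 36.1) in the rest. Summits in exons were 2.8% (1.13 to 5.68) against 14.6% in the rest, and those in introns 9.6% (6.25 to 13.9) against 17.0% (15.7 to 18.3). Between genes lay 25.2% of the 250 regions and 24.4% of the others, which do not differ beyond the counting error. RNA genes outside promoters held 11.2% and 9.62%.

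**Figure D3:**
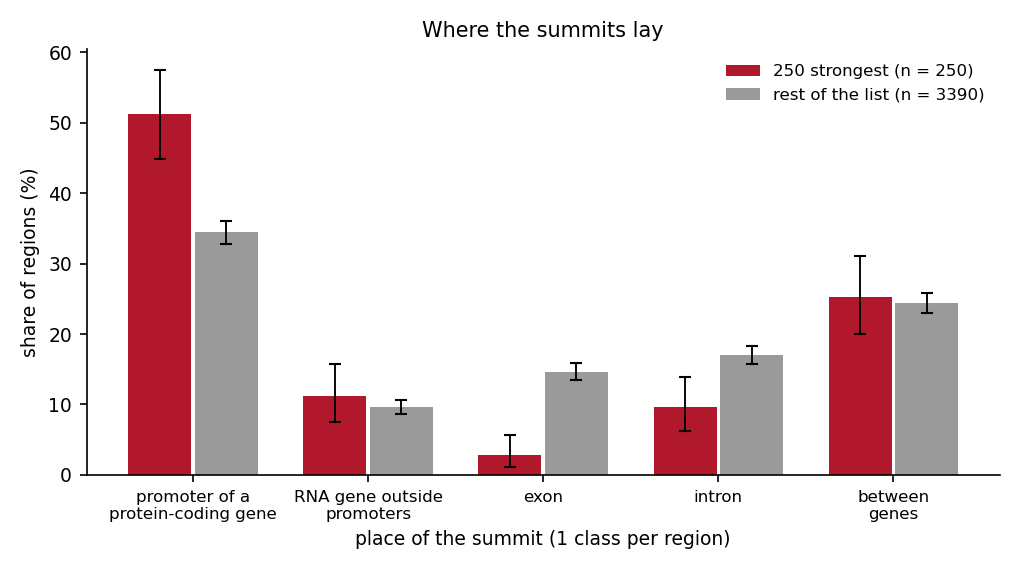
Share of regions (%) by the place of the summit, 1 class per region, for the 250 strongest (red) and the other 3390 (grey), with exact 95% intervals as bars. Promoters hold 51.2% against 34.4%, and exons 2.8% against 14.6%.

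The promoter summits mostly lay upstream of the start. The window reaches 500 bp upstream and only 200 bp downstream, which by itself favours upstream positions in both groups. Their median position was 190 bp upstream, and 123 of 128, or 96.1%, were upstream, against 79.0% of the 1167 promoter summits in the rest, whose median was 145 bp upstream. Both-sided promoters were frequent. Genes on both strands had their promoter window over the same summit in 38 of the 128 regions, or 29.7% (21.9 to 38.4), and in 15.2% (13.2 to 17.4) of the promoter summits in the rest. Examples are enpl-1 with imp-2, drr-2 with set-16 and the 2 Hsp70-family genes F44E5.5 and F44E5.4.

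**Figure D4:**
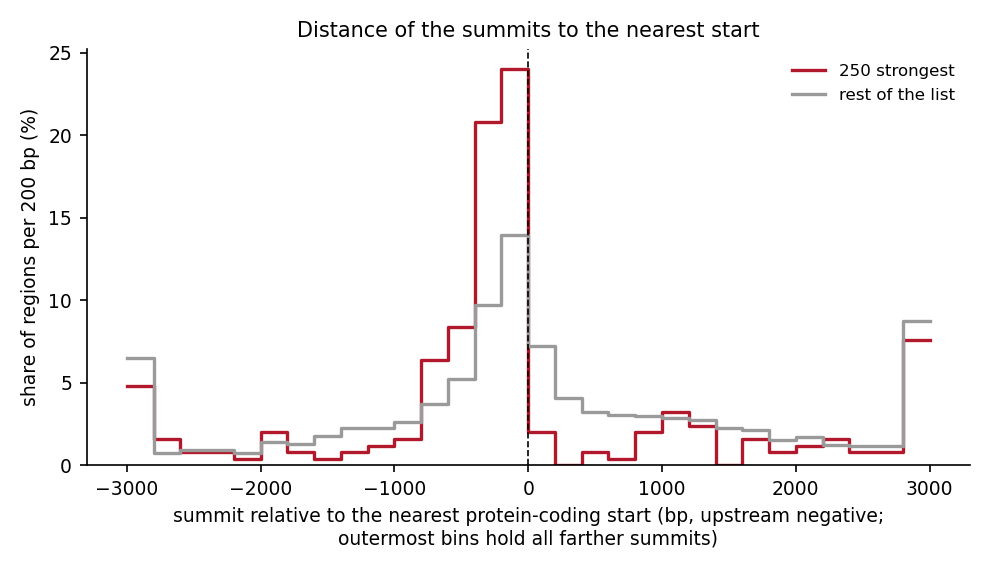
Share of regions (%) per 200 bp of distance from the summit to the nearest protein-coding start (bp, upstream negative), for the 250 strongest (red) and the rest (grey). The bin from 200 bp upstream to the start holds 24% of the 250 regions, and the bin from the start to 200 bp downstream holds 2%.

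The extended box was carried by 37 of the 250 windows, or 14.8% (10.6 to 19.8), against a background of 8.71% of all regions and 8.26% (7.35 to 9.24) of the rest. Of the 498866 windows of 201 bp that tile the nuclear genome, 2.09% held it, and of the windows 500 bp to the left and to the right of the 250 summits, 1.6% and 2.8% did. Plain CCAAT did not set the regions apart in these windows: 40% (33.9 to 46.4) held it, against 37.3% of all regions and 36.7% of genome windows. The gap was wider within 50 bp of the summit, with 29.2% against 23.4% of the rest.

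The box followed the signal closely only at the top. It was in 9 of the first 10 regions, 4 of the next 15 and 1 of the 25 after those. Ranks 51 to 100 and 101 to 150 each had it in 14%, ranks 151 to 200 in 6% and ranks 201 to 250 in 12%. Ranks 251 to 500, outside the set, had it in 11.6% (7.91 to 16.2). From rank 26 on, the shares inside the set, 4% to 14%, thus lay on both sides of that just outside it.

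**Figure D5:**
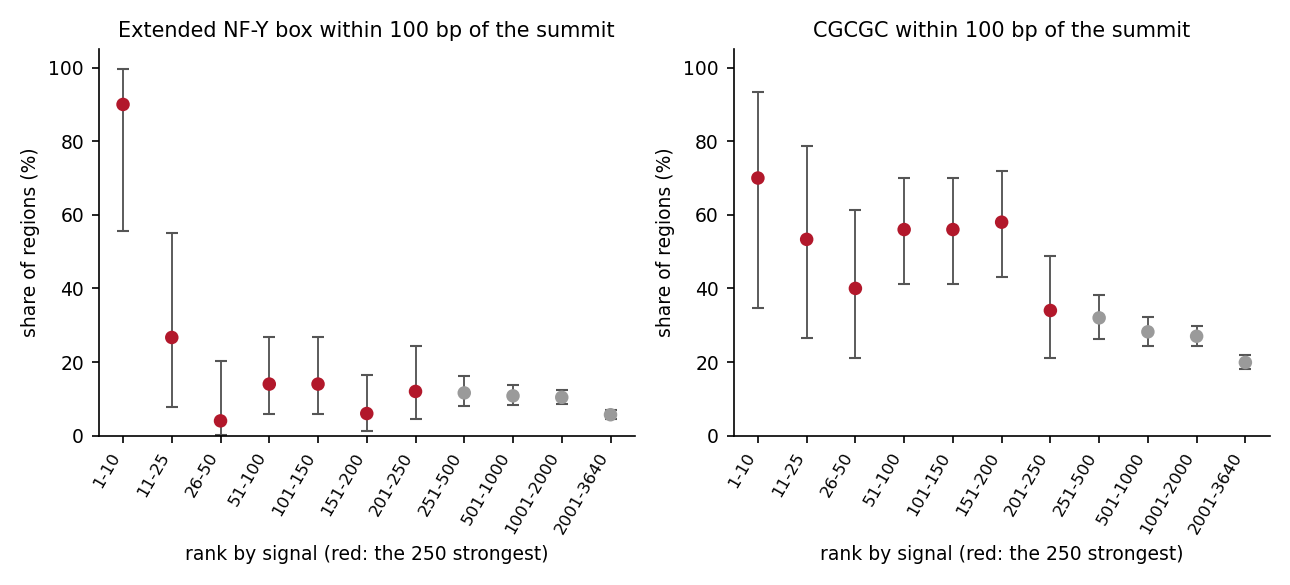
Share of regions (%) with an extended box (left) and with CGCGC (right) within 100 bp of the summit, by rank of signal, with exact 95% intervals; red marks the 250 strongest regions and grey the rest. The box is in 90% of ranks 1 to 10 and in 4% to 26.7% of the later red bins, while CGCGC stays between 34% and 70% in all red bins.

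Boxes lay near the summit in both groups. The 56 boxes of these regions had a median distance of 23.5 bp from the summit to the middle of the box, against 27 bp in the rest. Within 25 bp lay 30 of the 56, and 253 of 528 in the rest. Within 50 bp lay 51, or 91.1%, against 75.9% in the rest. By place, the box stood in 18 of 128 promoter regions, or 14.1% (8.55 to 21.3), against 3.86% (2.83 to 5.13) of promoter regions in the rest. These 18 include ranks 1 to 4 and 6 to 9, so the share leans on the top of the order. The share in promoter regions of lower rank alone was not worked out. Of intronic regions, 9 of 24, or 37.5% (18.8 to 59.4), held it, against 22.1% (18.8 to 25.7) in the rest. Between genes the shares were 12.7% (5.65 to 23.5) and 7.86% (6.12 to 9.91).

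At least 2 boxes stood in 14 of the 250 windows, 5.6%, against 4.37% of the rest. Only ranks 1 and 7 among them were promoters, and 8 were introns, 3 lay between genes and 1 in an exon. Those away from starts include rank 25, in an intron (chrIII:9570927-9571215), with 485.3 in replicate 1 and 541.1 in replicate 2, and rank 34, between genes, with 3 boxes and signals of 329.9 and 433.9 (chrI:5388347-5388600). Rank 101 had 4 boxes on the same strand, 32 bp apart each time, with signals of 243.2 and 256.5 (chrII:13855472-13855729). Of these 14 regions, 11 had no protein-coding start within 1000 bp, against 33.6% of all 250. The same held for 56.4% of the 280 regions of the rest with a box, so it is not particular to the set. A 30-base stretch that recurs in the genome was in 7 of the 14 windows, against 32.8% of all 250.

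The spacing of 32 bp, measured between the starts of neighbouring boxes on the same strand, applied to 8 of 10 such pairs. In the rest, 90 of 116 such pairs had it, or 77.6%, and in the tiled genome windows 275 of 518 did, or 53.1%. Boxes that faced each other made 8 pairs among the 250 regions, 6 of them 36 to 39 bp apart. At the strongest region the 2 boxes were 30 bp apart, and at pdi-2 they were 34 bp apart.

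The windows of the 250 regions were richer in G and C than those of the rest, with a mean of 47.2% ± 7.04 (SD over 250 windows) against 43.9% ± 7.20 and 35.4% in the tiled genome windows. Flanks 500 bp to the left and right had 37.6% and 37.4%. CGCGC, searched as a short GC-rich word, was in 127 windows, or 50.8% (44.4 to 57.2), against a background of 25.9%, 24.1% (22.7 to 25.6) in the rest and 6.91% of genome windows. Windows with the extended box held CGCGC in 43.2% (27.1 to 60.5) and those without it in 52.1% (45.2 to 59.0). GC content moves with CGCGC, and its part in that share was not tested.

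Other words were closer to the rest of the list. GAGAG was in 49.6% of the 250 windows, 45.2% of the rest and 23.0% of the tiled genome windows. The E-box CACGTG was in 5.6%, 6.93% and 3.33% of the same, and the heat shock word GAANNTTC in 12.8%, 10.1% and 14.5%. The word TGATAA was in fewer of the 250, 8.4% (5.27 to 12.6), than of the rest, 15.1% (13.9 to 16.4), or of genome windows, 17.9%. The ER stress word TGACGTG was in 4.4%, 2.54% and 1.56%. The ER stress element known from mammals, CCAAT followed by CCACG with 9 bases between, was in 1 of the 250 windows and in none of the rest, where 0 of 3390 allows a share of up to 0.0885% counted as 3 windows (the exact interval reaches 0.109%), and in 0.0170% of genome windows. CCACG alone was in 32.4%, 26.9% and 14.6%; it is part of that element. All words were searched on both strands. These matches describe the letters in the windows and say nothing of which factor was there.

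The promoters of the 250 regions belonged to 168 protein-coding genes of 19973. Counted against 16 lists of gene groups, 68 regions, or 27.2% (21.8 to 33.2), had a listed gene, with a background of 6.54% and 5.01% (4.3 to 5.8) in the rest. Promoter regions are commoner in the set than outside it, and their part in that share was not tested. Over all protein-coding genes, 0.841% were at the 250 regions, and 1297 genes were only at the far larger rest. Fewer genes lay only at the rest for ER chaperones (1 against 5), cytosolic chaperones (7 against 8) and translation factors (5 against 8). CCT had 2 and 2. Every other list had more genes only at the rest, such as chromatin (14 against 9) and splicing (12 against 3). The groups and what they held are given next, by role.

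Protein folding led. Of 16 genes for ER chaperones and folding enzymes, 5 had a promoter among the 250 regions: hsp-3, crt-1, pdi-2, pdi-6 and enpl-1. All 5 windows held the extended box, all 5 ranked among the first 9, and only 1 region of the rest had a promoter of this list. The cytosolic chaperones and cochaperones had 8 of 31 genes in 7 regions of median rank 181. The highest were hsp-90 at rank 6, F44E5.5 with F44E5.4 at rank 17 (559.3 and 594.2; chrII:11759266-11759696) and dnj-13, a DnaJ cochaperone gene, at rank 104 (208.9 and 284.8). Only the hsp-90 region of these 7 had the box. The cytosolic chaperonin CCT had cct-8 at rank 43 and cct-1 at rank 167, neither with the box. Of 25 genes for mitochondrial chaperones and import, 3 were there: Y22D7AL.10 at rank 1 with the box, and, without it, ddp-1, which encodes a Tim8-type import chaperone, at rank 114, and atad-3, an AAA ATPase gene of mitochondria, at rank 201.

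The genes of the ribosome were the largest group by count, and none of their regions had the extended box. Over all 128 promoter regions of the set the box was in 14.1%, a share that includes the first ranks, where the box was commonest. Its absence from 14 regions, or from the smaller groups named here, is thus not a result about a group. Of 81 genes for cytosolic ribosomal proteins, 14 were at 14 of the 250 regions, and 33 regions of the rest had others. The highest after rpl-3 were rpl-35 at rank 16, with 559.1 in replicate 1 and 655.1 in replicate 2 (chrIII:7854552-7854829), and rpl-20 at rank 20, with 504.8 and 604.7 (chrIV:4749939-4750210). The regions of translation factors and of the nascent-chain complex, 8 of 44 genes at 8 regions, lay lower in the order. They began with iff-2, the translation factor eIF5A, at rank 88 (259.5 and 288.2), then eef-1A.2, an elongation factor gene, at rank 143 (180.3 and 240.2) and eif-3.C, an initiation factor subunit gene, at rank 165 (188.1 and 248.7). None of the 8 had the box.

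Chromatin and transcription genes made up a further group. Of 104 histone and chromatin genes, 9 were at 9 regions, all without the box. The highest was set-16, a histone methyltransferase gene, which shares its promoter with drr-2 at rank 26 (437.0 and 594.9; chrIII:13643590-13643889). The next were lin-9 at rank 55 (308.6 and 358.6) and lin-54 at rank 59 (356.3 and 295.5), genes of the DREAM complex, a repressor of cell-cycle genes, where lin-54 shares its region with the ribosomal gene rpl-12. The lin-54 region is one of the few where replicate 1 was the higher. Of 81 genes for RNA polymerase and transcription factors, 5 were present, led by mdt-26 at rank 4, ints-4, an Integrator subunit gene, at rank 83 (239.7 and 308.9) and ntl-2, a CCR4-NOT subunit gene, at rank 106 (210.9 and 283.2). Only the mdt-26 region had the box.

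Ubiquitin and p97 genes had 4 of 43. wwp-1, the gene of a HECT ubiquitin ligase, stood at rank 19 with the box (522.4 and 595.1; chrI:536656-537035). cdc-48.1, one of the worm p97 unfoldase genes, stood at rank 23 without it (494.6 and 570.5; chrII:10563442-10563704), and eel-1, another HECT ligase gene, at rank 48 without it (347.4 and 406.0). The proteasome had 1 of 33, rpn-3 at rank 202, in a promoter shared with hsp-110. The list of autophagy and lysosome genes had none of 80 among the 250 regions, while 24 regions of the rest had one. Over all protein-coding genes the share at the 250 regions was 0.841%, and none of 80 is not a result about that list. Just outside the promoter window, rank 123 lay 516 bp upstream of its gene vps-39.

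The list of respiratory genes had 3 of 45, all without the box: the cytochrome oxidase subunit genes cox-5B at rank 24 (471.8 and 575.9; chrI:9788534-9788823) and cox-5A at rank 28 (436.0 and 510.4; chrIII:12905071-12905324), and the ATP synthase gene atp-1 at rank 86 (221.3 and 323.5). The list did not count the ATP synthase gene Y82E9BR.3, whose promoter is at rank 249, so it understates the group. Splicing factors had 3 of 44. The DEAH helicase gene mog-4 stood at rank 22 (491.3 and 566.1), the Sm protein gene snr-4 at rank 113 with the box (217.8 and 241.1), and smu-1 at rank 226 (155.0 and 181.9). At mog-4, 43.0% of the 30-base stretches occur more than once in the genome.

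The cytoskeleton had 4 of 45, led by the alpha-tubulin gene tba-2 at rank 42 (345.0 and 401.7), wip-1, which encodes a partner of WASP in actin assembly, at rank 51 (340.0 and 338.6) and cap-2, an actin capping gene, at rank 84 (281.1 and 271.0). Of these 4 only act-4, an actin gene at rank 102, had the box. ER translocation and vesicle traffic had 3 of 58, in 2 regions without the box: sec-61.B with trap-3 at rank 32, and sec-61.G at rank 74, all parts of the machinery that passes new proteins into the ER. Lipid and central metabolism had 2 of 51, pck-2 at rank 164 and pcyt-2.1 at rank 242.

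Small RNA genes were another class at these summits. An RNA gene of any class lay within 100 bp of 14.8% (10.6 to 19.8) of the 250 summits. The rest had 11.7% (10.7 to 12.9), which does not differ beyond the counting error. Ranks 251 to 500, just outside the set, had 29.2% (23.6 to 35.3), so the class is not particular to the set. Within 100 bp of an snRNA gene, the annotation class that includes the SL2 leaders, lay 10 summits, or 4% (1.93 to 7.23), against a background of 1.1% and 0.885% (0.598 to 1.26) in the rest. SL2 genes made up 5 of these 10: 5 of the 18 sls-2 genes were at the 250 regions and 9 more at the rest. The strongest was sls-2.1 at rank 31 (387.0 and 437.2; chrII:5844658-5845012), then sls-2.4 at rank 40 (336.7 and 398.4; chrI:4172018-4172555) and sls-2.2 at rank 60 (286.3 and 335.6; chrII:5543437-5544073). Copies of these genes share sequence, as the printed pair shows, and reads may not be assigned to single copies.

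Summits at snoRNA genes, whose RNAs guide the modification of ribosomal and other RNA, numbered 16, or 6.4% (3.7 to 10.2), against a background of 2.36% and 2.06% (1.61 to 2.6) in the rest. The highest were ZK994.7 at rank 37 (347.5 and 391.5; chrV:8500415-8500694), C51F7.3 with C51F7.4 at rank 46 (306.1 and 401.0; chrV:12303484-12303780) and F59C6.15 at rank 71 (219.0 and 350.1; chrI:10517094-10517333). At F59C6.15 the replicates lay farther apart than at the first pair.

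tRNA genes were at a smaller share of these summits than of the rest. They were at 10, or 4% (1.93 to 7.23), against a background of 8.24% and 8.55% (7.63 to 9.55) in the rest, and all were at rank 68 or lower. The direction turned for the 500 strongest, with 9.8% against 7.99%, and in windows with no recurring 30-base stretch, with 0.595% against 0.117%. The set has only 168 windows of the latter kind. Both of those shares rest on very few regions, so that turn is not a result. The first 3 were on chromosome X and each covered a pair of tRNA genes: rank 68 (277.0 and 310.5; chrX:3036016-3036269), rank 116 (233.8 and 253.0; chrX:9743522-9743818) and rank 138 (170.8 and 263.1; chrX:13046353-13046587). The B box, an inner promoter word of tRNA genes, was in 3.6% of the 250 windows, 5.96% of the rest and 0.315% of genome windows. MicroRNA genes were at 2 summits, rRNA genes at none, which allows a share of up to 1.2% counted as 3 regions (the exact interval reaches 1.46%).

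Regions far from genes and in repeated sequence were present at high ranks too. Of the 250, 84 had no protein-coding start within 1000 bp, 33.6%, against 44.3% of the rest. The highest were rank 15 (625.3 and 706.7; chrIV:4727891-4728197), rank 21 (532.5 and 576.3; chrII:4047914-4048201) and rank 25 above. Of the 30-base stretches in their windows, 61.0%, 41.9% and 2.3% occur more than once in the genome. At rank 12, 75% do. Ranks 12, 15 and 56 lay close together around K08F11.1 (chrIV:4720580-4728197). A recurring stretch of this kind was in 82 windows, 32.8% (27 to 39), against 24.1% (22.7 to 25.6) of the rest. How reads that map to more than 1 place were treated is not given in the sources used here, so the signal at such windows may belong in part to other copies.

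The 250 regions were spread over all chromosomes, with 50 on I, 43 on II, 46 on III, 40 on IV, 34 on V and 37 on X. Per megabase this was between 1.62 on V and 3.34 on III. Another of the 250 lay within 5 kb of 24 of them.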

How the data were processed

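The deposited lists hold regions from 2 NFYB-1 ChIP-seq replicates, in ce11 coordinates per the labels. Each region has a signal value, whose scale the headers do not name, and a score, per the file columns the authors deposited. The aligner, the peak caller and the handling of repeated reads are unstated there, and sequencing depth is unknown. A control is named in the labels and not used here. Regions of the nuclear chromosomes that overlapped by 1 bp or more were merged to the highest signal, and the 250 strongest were kept; all had the highest score, 1000. Replicate signals are those of the overlapping region, with the nearest summit, in each replicate's own ranked list. Promoters run from 500 bp upstream to 200 bp downstream of a protein-coding start (Ensembl release 115); RNA genes count within 100 bp. Words were searched on both strands of 201 bp windows of the RefSeq genome, of the same build. The members, gene lists and named regions were chosen with earlier results of these data known. Named are the 12 strongest, the 3 highest of each list with 3 or more regions and of each RNA class, the 3 highest far from starts, the 3 most uneven between replicates and the 3 on each side of the edge; others named were chosen after their values were seen. From the lists, tim-1 and imp-2 were taken off and 1 name pattern was corrected, after the counts were first seen. Python 3.11.15, pandas 2.3.3, scipy 1.17.1 and matplotlib 3.10.9 were used, and the merging and searches were checked on made-up regions.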

Additional observations from a re-analysis of the deposited data

Results flagged for a closer look

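Outside the nuclear regions, the conservative list holds 11 regions on the mitochondrial genome, and 10 of them had a signal above 336.5, that of the weakest of the 250 nuclear regions. The highest reached 8182, below only the first 2 nuclear regions. The lists used here give no level in a control to set beside them, and their source was not tested.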

How the results depend on the processing

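The set exceeded the rest in extended boxes in 11 of 11 alternatives, in promoter summits in 12 of 12 and in GC content in 11 of 11. CCAAT kept its direction in 8 of 11 and tRNA genes in 9 of 11. CCAAT turned over whole regions (42% against 55.2% in the rest), for the 500 strongest (37.2% against 37.3%) and in the list of replicate 1 (40% against 40.3%). Whole regions are of unequal length, with a median of 226.5 bp against 376 bp in the rest. That turn is thus not a like comparison. The extended box was in 21% of the 100 strongest. CCAAT was in 29.2% within 50 bp of the summit, against 23.4% of the rest. Promoter shares were 44% for the 500 strongest, 33.2% with 250 bp upstream and 100 bp downstream, and 64% with 1000 bp and 500 bp. tRNA shares were 1% for the 100 strongest, 9.8% for the 500 strongest (7.99% in the rest) and 1.6% at a distance of 0 bp. Listed genes were at 37% of the 100 strongest and 18% of the 500 strongest. Overlap with both replicates' lists was 89.2% when 50% of the region had to be covered. Mean GC was 47.5% for the 100 strongest, 46.8% for the 500 strongest, 47.1% when merging came last, 47.0% when mitochondrial regions counted, 51.1% within 50 bp and 45.9% over whole regions; each replicate's own list gave 46.99% and 47.07%. In the 168 windows of the set with no recurring 30-base stretch, an alternative chosen after seeing the data, promoters made 60.1%, tRNA genes 0.595% (0.117% in the rest, both from very few regions) and GC 47.4%. The cause of these shifts was not tested. No paired analysis was possible because the study has 1 group. Without depths, the precision of each signal is unknown.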
